A study of Drosophila melanogaster with 9 samples.

Results

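Myc and a set of nucleolar growth genes were examined in the larval wing pouch of Drosophila melanogaster, the part of the wing disc that forms the wing blade. The genes were taken by FlyBase symbol: Myc, Max, Mnt, Fib, Nop56, nop5, Nop60B, Nnp-1, pit and Tif-IA. Of these 10 genes, 9 were matched by identifier to a row of the deposited table of 15682 genes, and all 9 were among the 7437 genes tested, those with a mean of at least 1 RPKM (RPKM divides a gene's reads by its length and by the depth of the library). No row was matched to pit, a nucleolar DEAD-box helicase gene, and it was not analysed here.

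All larvae were male and carried Bx-GAL4 (MS1096-GAL4) and UAS-dicer2 from mothers of Bloomington stock 25706 in a w1118 background. Bx-GAL4 drives UAS transgenes in the wing pouch and UAS-dicer2 supplies the nuclease that cuts hairpin RNAs. Fathers gave either a UAS hairpin against the noncoding RNA CR32027 (VDRC 26860 for CR32027-IR1, VDRC 103512 for CR32027-IR2) or none in the case of OreR, a wild-type strain. Wandering larvae of the last instar were grown at 25 °C, and RNA came from pools of 30 discs with the nota removed, in 3 libraries per genotype. Each hairpin was represented by a single transgenic line, so hairpin and stock background cannot be told apart. Nothing in the labels ties the 3 libraries to separate crosses, and the p-values therefore reflect only the spread among these libraries, which may be technical.

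Myc is a basic helix-loop-helix leucine zipper transcription factor that promotes cell growth. It binds DNA as a dimer with Max, and Mnt, which also pairs with Max, opposes it. In the fly wing disc Myc is known to set cell size and growth rate, in large part through genes of ribosome production. Ribosomal RNA is made in the nucleolus by RNA polymerase I, which needs Tif-IA to start, and is then modified by small nucleolar ribonucleoproteins (snoRNPs) and cut and folded by assembly factors.

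The libraries held 25070343 to 36512316 reads, read from the steps between low values. CR32027, which both hairpins target, averaged 2.74 ± 0.495 RPKM in OreR (mean ± SD, n = 3, as throughout). The average was 0.905 ± 0.432 in CR32027-IR2 but 3.57 ± 0.793 in libraries labelled CR32027-IR1. The change passed for CR32027-IR2 (log2 change -0.99 ± 0.19 SE; limma, adjusted p = 0.0171, or 0.0778 without OreR replicate 2) and not for CR32027-IR1 (0.29; 0.348), so directions given for CR32027-IR1 rest on its label. Wing pouch markers were present, with all 6 listed genes that had a row above 1 RPKM in every genotype. All 5 muscle precursor markers and all 4 fat body markers were below 1 RPKM, as were 3 of 6 notum markers (tup, pnr and ush). The other 3 (eyg, caup and Doc2) were above 1 RPKM, and the notum list summed to 16.4 to 19.4 RPKM. Hinge markers summed to 54.4 to 68.7 RPKM. The 2 tracheal markers with a row (trh and vvl, without btl) summed to 107 to 145, and such sums do not give the share of a tissue. Hemocyte markers summed to 0.743 to 5.76 RPKM in CR32027-IR1, 2.01 to 4.18 in CR32027-IR2 and 3.28 to 5.93 in OreR. Of these, Hml, srp and eater were below 1 RPKM in every genotype, and NimC1 and Sr-CI in CR32027-IR2 only.

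The members lay on several chromosomes, and their genomic context bears on how their reads could be counted. All positions are BDGP6 and the submitters' processing notes name dm3, so none was converted. Myc lies on the plus strand of X from 3373159 to 3391697 and shares 3754 exonic bases with CG12535 on the opposite strand. Max lies on the minus strand of 3L from 19262232 to 19264184, where its exons overlap those of Bet1 by 206 bases and those of Mettl5 by 182 bases, both on the opposite strand. CG42374 has the coordinates of Mettl5, also overlaps Max by 182 bases, and had the same RPKM as Mettl5 in every library. No source used here says whether the counter read strand, so reads of these overlaps may not have been kept apart. Mnt lies on the plus strand of X from 3671801 to 3701672.

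Fib (minus strand of 2R, 23072909 to 23074725) and Nop60B (plus strand of 2R, 24174877 to 24186343) contain annotated snoRNA genes, 1 and 7 respectively. Nop56 lies on the minus strand of 3R from 22419095 to 22421068. On 2L lie nop5 (minus strand, 6916753 to 6918743), Nnp-1 (minus strand, 13363308 to 13366189) and Tif-IA (plus strand, 22249876 to 22258260). Within Tif-IA lie 6 annotated transposable elements, and 1 each lies within Nop60B and Nnp-1. Whether reads of such repeats were counted for these genes was not tested. The whole of nop5 lies within the span of x16, a splicing factor gene on the same strand, and shares 0 exonic bases with it.

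For most genes with introns (79.8% within 2%), the deposited levels divided reads by the whole genomic span, which lowered the values of members with long introns. Max was an exception, with a length of 1659 bases between its 1289 exonic bases and its span of 1953. The gene length in the RPKM values was 18539 bases for Myc, which has 9170 exonic bases in BDGP6, and 31485 bases for Mnt, which has 4556. For Tif-IA it was 8383 bases against 2140 exonic bases, and for Nop60B 11619 against 3412. Nnp-1 has 1 exon, and its length was 2889 bases.

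The order of the members by level therefore depended on the length used. Over the 9 libraries the mean deposited level ran from 2.69 RPKM for Mnt and 12.3 for Myc to 111 for Fib, 122 for Nop56 and 139 for nop5. Per kilobase of BDGP6 exons the same reads gave 18.6 (RPKM with exonic length) for Mnt, 24.8 for Myc, 36.8 for Max, 43.8 for Nnp-1 and 53.1 for Tif-IA. On that scale Nop60B stood at 108, Nop56 at 138, nop5 at 152 and Fib at 154. On the exonic scale Mnt, Myc and Max were the lowest and the 4 snoRNP proteins the highest. On the deposited scale Tif-IA (13.5 RPKM) stood below Max (28.6) and Nop60B (31.8) below Nnp-1 (43.7). The exonic scale assumes that all counted reads came from BDGP6 exons, which the table cannot show.

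**Figure D1:**
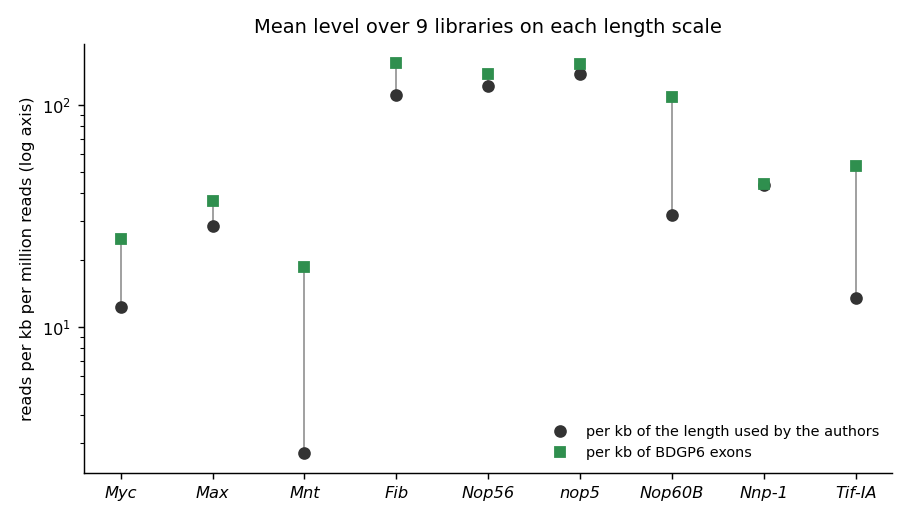
Mean level of each of the 9 genes over the 9 libraries, on a log axis in RPKM. Circles use the gene length in the deposited RPKM values and squares the BDGP6 exonic length; Mnt moves from 2.69 to 18.6 and Tif-IA from 13.5 to 53.1, while Nnp-1, with 1 exon, stays at about 44.

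Tif-IA, which brings RNA polymerase I to ribosomal DNA promoters, was the member that differed between the genotypes under every setting tried. Both other genotypes had more of it than libraries labelled CR32027-IR1. Its libraries were at 11.9, 12.3 and 11.7 RPKM in CR32027-IR1, at 14.6, 14.2 and 13.8 in CR32027-IR2, and at 14.3, 14.6 and 14.6 in OreR. All 3 CR32027-IR1 libraries lay below all 6 others, while CR32027-IR2 and OreR overlapped.

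The mean of Tif-IA in CR32027-IR1 (11.97 ± 0.326 RPKM) was 82.5% of that in OreR (14.5 ± 0.192) and 84.4% of that in CR32027-IR2 (14.2 ± 0.43). The log2 change against OreR was -0.26 ± 0.045 (SE; 95% interval -0.36 to -0.16; limma, adjusted p = 0.0071). Against CR32027-IR2 it was -0.23 ± 0.045 (interval -0.33 to -0.12; limma, adjusted p = 0.00847). In CR32027-IR2 against OreR it was -0.03 (interval -0.13 to 0.07; limma, adjusted p = 0.804). Both calls were kept in all 19 alternatives, including the omission of each of the 9 libraries, with adjusted p from 0.000956 to 0.0441 against OreR and from 0.000679 to 0.0447 between the hairpin genotypes.

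The values of Tif-IA rest on 9323 reads over the CR32027-IR1 libraries, 10877 over CR32027-IR2 and 10599 over OreR. How far reads of the 6 transposable elements within its span enter these values was not tested. The genotype with lower Tif-IA was not the one with lower CR32027. Wing pouch markers, summed over the 6 genes with a row, were at 59.2 to 65.4 RPKM in CR32027-IR1, 66 to 69.1 in CR32027-IR2 and 68.5 to 69.6 in OreR, and their part in the Tif-IA result was not tested. In dissected tissue, fewer cells of a type and less RNA per cell cannot be told apart.

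**Figure D2:**
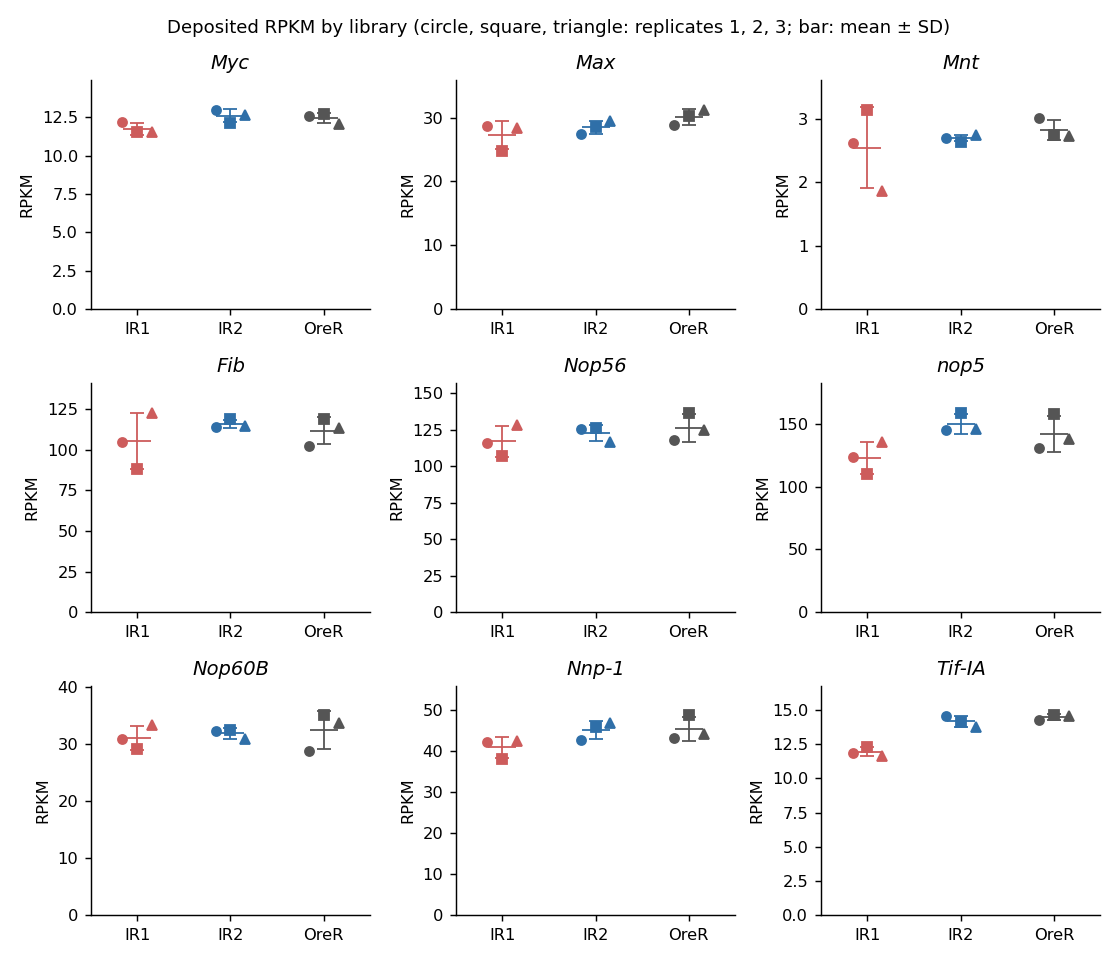
Deposited RPKM of the 9 genes in each library of CR32027-IR1 (IR1), CR32027-IR2 (IR2) and OreR, with replicates 1, 2 and 3 as circle, square and triangle and bars for the mean ± SD of 3 libraries; every axis starts at 0. The 3 CR32027-IR1 libraries of Tif-IA, at 11.7 to 12.3, sit below the other 6, and those of Nnp-1 do so by a narrow margin. For nop5 they sit below the CR32027-IR2 libraries only, and for Max just below the OreR libraries only. For Myc, Mnt, Fib, Nop56 and Nop60B every pair of genotypes overlaps.

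Myc itself was at similar levels in the 3 genotypes. Its libraries were at 12.2, 11.5 and 11.5 RPKM in CR32027-IR1, at 13.0, 12.2 and 12.7 in CR32027-IR2, with 12.6, 12.8 and 12.1 for OreR, so every pair of genotypes overlapped. The order of the means was CR32027-IR2 (12.6 ± 0.43), OreR (12.5 ± 0.334) and CR32027-IR1 (11.8 ± 0.406), and no pair of genotypes passed the limma test.

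The log2 change of Myc was -0.08 (95% interval -0.19 to 0.03; limma, adjusted p = 0.325) in CR32027-IR1 against OreR. It was 0.01 (interval -0.10 to 0.13; limma, adjusted p = 0.93) in CR32027-IR2 against OreR and -0.09 (interval -0.20 to 0.02; limma, adjusted p = 0.205) between the hairpin genotypes. The exact two-sided permutation p was 0.2, 0.7 and 0.2 in the same order, where 3 against 3 libraries cannot go below 0.1. At 20094 to 21365 reads per genotype, the spread between libraries rather than counting set this precision.

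Its partners did not pass the test either. Max ranged from 24.7 to 28.7 RPKM in CR32027-IR1, from 27.5 to 29.5 in CR32027-IR2 and from 28.8 to 31.2 in OreR. The CR32027-IR1 libraries of Max lay just below those of OreR, with log2 change -0.14 (95% interval -0.28 to 0.0058; limma, adjusted p = 0.183). Mnt, the antagonist, was at 2.62, 3.14 and 1.87 RPKM in CR32027-IR1, which enclosed its whole range of 2.64 to 3.01 in the other 6 libraries, and its log2 change against OreR was -0.13 (interval -0.40 to 0.14; limma, adjusted p = 0.53).

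By a rule set for naming genes, the 4 genes whose centred log2 values over the 9 libraries lay closest to those of Myc were CG5026, Rfx, mAcon1 and Nup154. Their root mean square difference from Myc was 0.031 to 0.035 on the log2 scale, against a median of 0.126 over all genes tested.

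Among the box C/D snoRNP proteins, which guide and carry out 2'-O-methylation of ribosomal RNA, only nop5 was called in any comparison. The gene nop5 encodes the fly Nop58 protein, a scaffold that binds the guide RNA together with Nop56. It was at 124, 110 and 136 RPKM in CR32027-IR1, at 145, 159 and 146 in CR32027-IR2, with 131, 158 and 138 for OreR. All CR32027-IR1 libraries were below all CR32027-IR2 libraries, and both genotypes overlapped OreR.

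Between the hairpin genotypes the log2 difference of nop5 was -0.29 ± 0.09 (SE; CR32027-IR1 lower; limma, adjusted p = 0.0482). The nop5 call did not hold without CR32027-IR1 replicate 1 or 2, any CR32027-IR2 library or OreR replicate 3 (limma, adjusted p = 0.0655 to 0.146), with a replicate block (0.0912), and in 4 other settings. Against OreR, CR32027-IR1 stood at a log2 change of -0.21 (limma, adjusted p = 0.156) and CR32027-IR2 at 0.08 (0.735). The enclosing gene x16 was at 66.1 ± 4.57 RPKM in CR32027-IR1, 85.5 ± 4.03 in CR32027-IR2 and 82.8 ± 6.04 in OreR. Its log2 difference was -0.37 between the hairpin genotypes (limma, adjusted p = 0.00626). In CR32027-IR1 against OreR it was -0.32 (limma, adjusted p = 0.0165, called in 16 of 19 alternatives). Since nop5 lies within x16 on the same strand, reads of nop5 and x16 may not have been kept apart.

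Fibrillarin (Fib), the methyltransferase of these particles, was at 105, 88.1 and 123 RPKM in CR32027-IR1, a range that held all 6 other libraries (103 to 119). Nop56 was at 117 ± 10.4 RPKM in CR32027-IR1, 123 ± 5.3 in CR32027-IR2 and 126 ± 9.66 in OreR. Neither passed in any comparison, and the 95% intervals against OreR in CR32027-IR1 ran from -0.33 to 0.15 for Fib and from -0.28 to 0.06 for Nop56 on the log2 scale.

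Nop60B, the fly dyskerin and the pseudouridine synthase of the box H/ACA particles, varied little between genotypes. Its means were 31.1 ± 2.11 RPKM in CR32027-IR1, 31.9 ± 0.917 in CR32027-IR2 and 32.5 ± 3.28 in OreR. CR32027-IR1 differed from OreR by -0.06 on the log2 scale (95% interval -0.23 to 0.11; limma, adjusted p = 0.652) and CR32027-IR2 by -0.02 (interval -0.20 to 0.15; limma, adjusted p = 0.927).

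Nnp-1, whose yeast relative Rrp1 acts in assembly of the large ribosomal subunit, was at 40.9 ± 2.52 RPKM in CR32027-IR1, 45 ± 2.17 in CR32027-IR2 and 45.3 ± 2.94 in OreR. Its CR32027-IR1 libraries (38.0 to 42.5) lay below all others (42.6 to 48.6) by a narrow margin. The log2 change against OreR was -0.14 (95% interval -0.29 to 0.0021; limma, adjusted p = 0.173) and did not pass.

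Of the 9 members, 1 was called in CR32027-IR1 against OreR (lower), 0 in CR32027-IR2 against OreR and 2 between the hairpin genotypes (both lower in CR32027-IR1). Of all genes tested, limma called 13.7%, 5.15% and 21.9% in these comparisons, so the members' shares of calls in either direction were near the background. Calls as lower made up 7.61%, 2.22% and 9.57% of all genes tested. The 2 lower members between the hairpin genotypes are too few to set against that share. At an unadjusted p under 0.05 there were 2, 0 and 2 members, where 29.9%, 18.3% and 36.4% of all genes had such a p. All CR32027-IR1 libraries lay below all OreR libraries for 3 members (Max, Nnp-1 and Tif-IA), as they did for 14.6% of all genes. The same held of CR32027-IR2 for 0 members (16.6% of all genes), and of CR32027-IR1 against CR32027-IR2 for 3 members (nop5, Nnp-1 and Tif-IA; 16.8%). In CR32027-IR1 the fitted change of all 9 members was below 0, with a median of -0.13 on the log2 scale, while 45.9% of all genes were below 0 and their median was 0.01. Without CR32027-IR1 replicate 2 this count was 8 and the median -0.07. In CR32027-IR2, which was compared with the same OreR libraries, 6 members were below 0 (58.7% of all genes), or 3 without OreR replicate 2. Between the hairpin genotypes 9 were below 0 (42.9% of all genes), or 7 without CR32027-IR1 replicate 2.

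**Figure D3:**
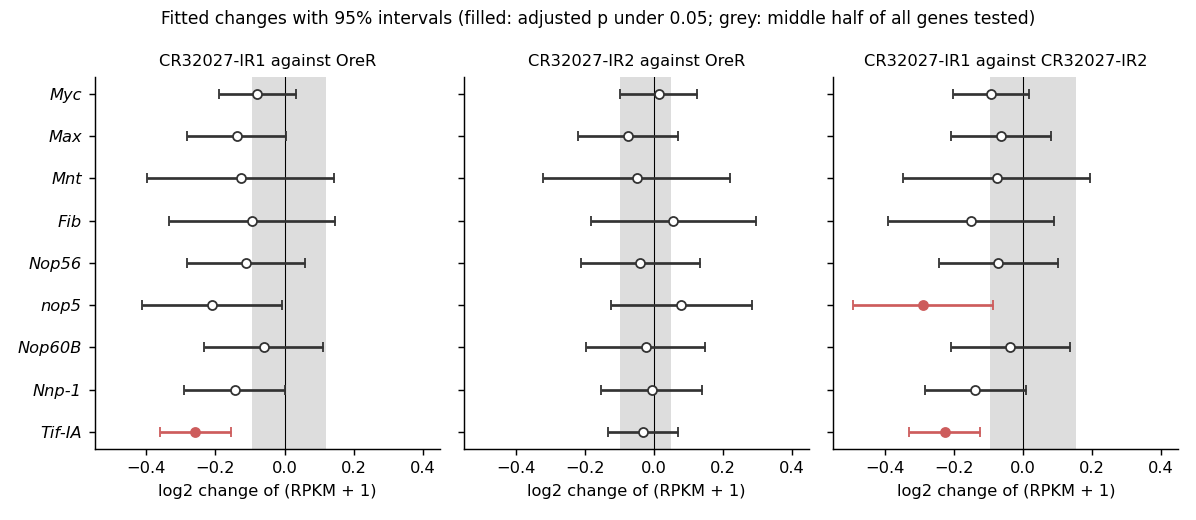
Fitted log2 change of (RPKM + 1) with 95% interval for each gene in the 3 comparisons; filled points passed at adjusted p under 0.05 and the grey band spans the lower to the upper quartile of all 7437 genes tested. Tif-IA is filled at -0.26 and -0.23 where CR32027-IR1 is compared with OreR and with CR32027-IR2, and nop5 at -0.29 between the hairpin genotypes.

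Within CR32027-IR1 and within OreR, the RNAs of 5 nucleolar protein genes moved together from library to library. Fib, Nop56, nop5, Nop60B and Nnp-1 were all lowest in replicate 2 of CR32027-IR1 and all highest in its replicate 3. In OreR all 5 were lowest in replicate 1 and highest in replicate 2. Their median deviation from the genotype mean was -0.12 and 0.13 (log2) in those CR32027-IR1 libraries and -0.12 and 0.11 in those OreR libraries, while all genes tested had medians of -0.03, 0.02, -0.01 and 0.01. In CR32027-IR2 the deviations were smaller, with medians from -0.04 to 0.04, and the genes agreed less. There 3 of the 5 were lowest in replicate 1 and 2 in replicate 3, while 4 were highest in replicate 2.

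Ribosome assembly factors that are not members shared this pattern in part. Of 37 such genes, 30 were lowest in CR32027-IR1 replicate 2 (50.2% of all genes tested) and 24 were highest in its replicate 3 (44.1%). In OreR 34 were highest in replicate 2 (34.1%), but 17 were lowest in replicate 1 (38.4%) and another 17 in replicate 3 (34.1%). In CR32027-IR2, 32 were highest in replicate 2 (38.3%). Tif-IA was highest in replicate 2 of CR32027-IR1, where those 5 members were lowest, but in OreR its lowest and highest libraries were replicates 1 and 2, as theirs were. Which property of the libraries goes with this was not tested.

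**Figure D4:**
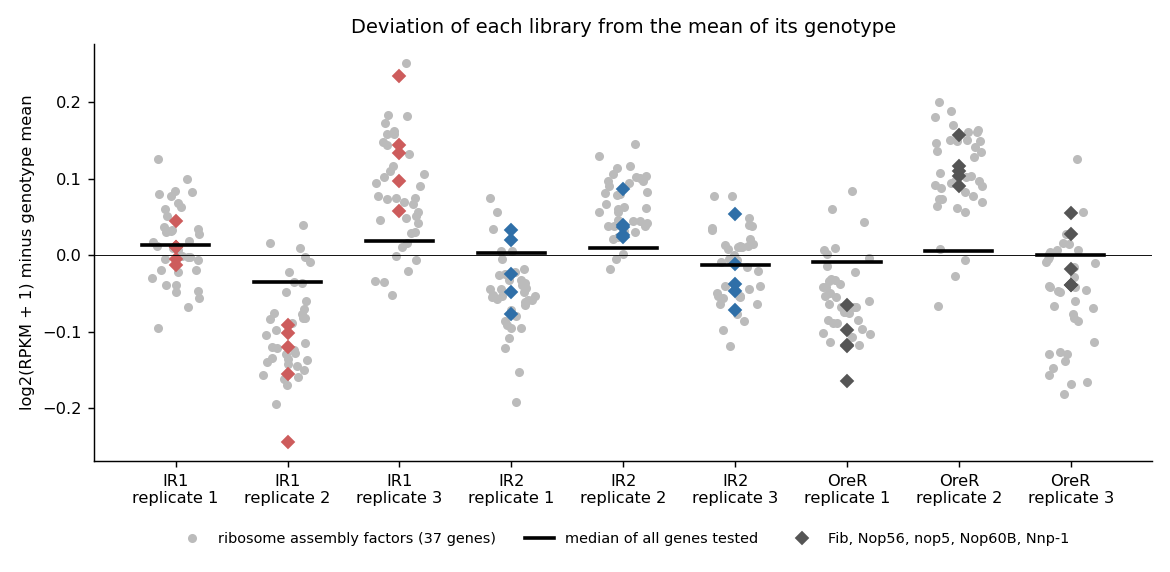
Deviation of log2(RPKM + 1) from the genotype mean in each library, for Fib, Nop56, nop5, Nop60B and Nnp-1 (diamonds), 37 ribosome assembly factors (grey circles, spread sideways for visibility) and the median of all genes tested (black bars). Diamonds and circles shift as a group, down in CR32027-IR1 replicate 2 and up in OreR replicate 2, while the black bars stay between -0.04 and 0.02.

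The remaining genes of the pathway were read from the same fit as 4 lists. Among 11 partners and regulators of Myc, 0 were called in the 3 comparisons by limma, where 13.7%, 5.15% and 21.9% of all genes tested were. Of these 11 genes 0, 0 and 1 had an unadjusted p under 0.05 (limma), against 29.9%, 18.3% and 36.4% of all genes. The genes with the smallest p against OreR were brat, a translational repressor that lowers Myc (log2 change -0.14 in CR32027-IR2; limma, adjusted p = 0.385), hfp, a splicing factor that represses Myc transcription (-0.10 in CR32027-IR1; 0.348), and bigmax and Mondo, which encode a related dimer that responds to sugar (0.15 and -0.09 in CR32027-IR1; 0.381 and 0.409). The list's median change was -0.05 in CR32027-IR1 and 0.01 in CR32027-IR2.

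In the snoRNP list 0 of 8 genes were called by limma in any comparison, and 2, 0 and 3 had an unadjusted p under 0.05, against 29.9%, 18.3% and 36.4% of all genes. Nopp140, a nucleolar chaperone of snoRNPs, was at 54.2 ± 1.84 RPKM in CR32027-IR1 and 61.6 ± 5.7 in OreR (log2 change -0.18; limma, adjusted p = 0.0975). CG10341 was at 23 ± 1.89 and 28.9 ± 3.7 RPKM (-0.31; limma, adjusted p = 0.0793). Nufip, a snoRNP assembly factor, stood at -0.30 in CR32027-IR2 (limma, adjusted p = 0.28), and the assembly factor gene spag at 0.16 in CR32027-IR1 (0.266).

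Among 9 genes of the RNA polymerase I machinery, which works with Tif-IA, 0 were called against OreR and 1 between the hairpin genotypes (limma). Of all genes tested 13.7%, 5.15% and 21.9% were called in the 3 comparisons. At an unadjusted p under 0.05 there were 1, 0 and 2 genes of the list (limma), against 29.9%, 18.3% and 36.4% of all genes. Between the hairpin genotypes TAF1B, a subunit of the promoter selectivity factor, was lower in CR32027-IR1 at 8.4 ± 0.674 RPKM than in CR32027-IR2 at 10.3 ± 0.265 (log2 difference -0.27; limma, adjusted p = 0.0307). TAF1B no longer passed without CR32027-IR1 replicate 1 or 2 or any CR32027-IR2 library (limma, adjusted p = 0.0543 to 0.109). The polymerase subunit gene Polr1B stood at -0.12 in CR32027-IR1 (limma, adjusted p = 0.359) and Polr1C at 0.16 (0.303). The promoter factor gene udd stood at 0.21 (limma, adjusted p = 0.27) and passed as higher without CR32027-IR1 replicate 2 (0.0123).

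Among the 37 ribosome assembly factors limma called 1 in CR32027-IR1 against OreR (13.7% of all genes tested), 0 in CR32027-IR2 (5.15%) and 1 between the hairpin genotypes (21.9%). At an unadjusted p under 0.05 there were 4, 3 and 6 (limma), against 29.9%, 18.3% and 36.4% of all genes. Noc1, needed for assembly of the large subunit, fell from 20 ± 1.04 RPKM in OreR to 16.3 ± 0.562 in CR32027-IR1 (limma, log2 change -0.28 ± 0.054 SE, adjusted p = 0.01). It stood at 18.3 ± 0.666 in CR32027-IR2 (limma, adjusted p = 0.278). The Noc1 libraries of each hairpin genotype lay below all OreR libraries (14.6% of all genes for CR32027-IR1, 16.6% for CR32027-IR2). Non1, a nucleolar GTPase gene, was higher in CR32027-IR1 than in CR32027-IR2, at 301 ± 48.9 and 218 ± 6.98 RPKM (log2 difference 0.45 ± 0.096 SE; limma, adjusted p = 0.0112), and at 248 ± 1.46 in OreR. CG1542 stood at -0.15 in CR32027-IR1 (limma, adjusted p = 0.101) and Surf6, a nucleolar matrix protein gene, at 0.23 in CR32027-IR2 (0.186). The median change of the 37 genes was -0.03 in CR32027-IR1 and 0.01 in CR32027-IR2, against 0.01 and -0.02 over all genes tested.

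**Figure D5:**
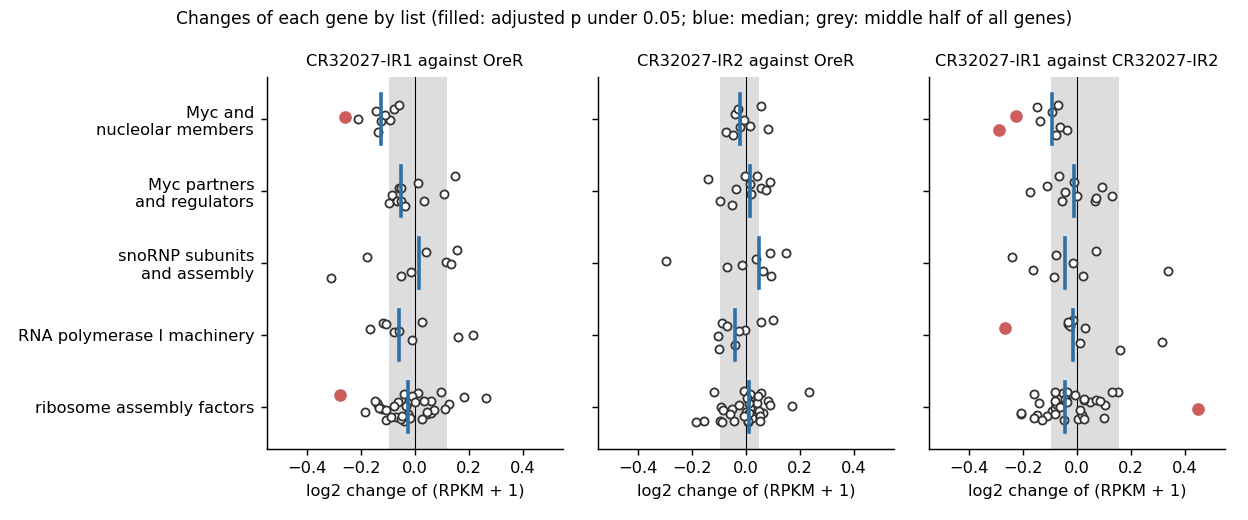
Fitted log2 change of (RPKM + 1) of each gene in the 9 members and 4 pathway lists, for the 3 comparisons; blue bars are list medians, filled points passed at adjusted p under 0.05 and the grey band spans the quartiles of all genes tested. Most genes lie within or close to the band, and the filled points are Tif-IA and Noc1 against OreR in CR32027-IR1, and Tif-IA, nop5, TAF1B and Non1 between the hairpin genotypes.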

How the data were processed

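Per the labels' protocols, 100 ng of total RNA went into each stranded mRNA library. CASAVA 1.8.2, TopHat2 and dm3 appear, without roles, in the submitters' processing notes. The authors deposited RPKM values for 15682 genes in 9 libraries. No source used here names the read counter, its use of strand or the annotation. Symbols were matched by gene identifier (15002 genes) and positions taken from BDGP6.

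Low values were whole multiples of 1 read, which gave each library's depth. For 7435 of the 7437 genes averaging 1 RPKM or more, some gene length turned every value into whole reads (tolerance 0.01). Of 3384 of these genes with introns, 79.8% had a length within 2% of the BDGP6 span and 0.325% within 2% of the exonic length. Reads carry no molecular identifiers.

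Values were taken as log2(RPKM + 1), and 1 limma 3.58.1 model (R 4.3.3), trended on intensity, covered the 9 libraries. Benjamini-Hochberg adjustment ran over the 7437 genes, with calls at adjusted p under 0.05. This scale understates changes of low genes. Fits were tested on simulated data. Named genes are the members, CR32027, the 4 genes closest to Myc and up to 4 genes of each list with the smallest p against OreR; x16, the overlapping genes and the snoRNA genes were chosen after their values were seen. Members and lists were chosen with earlier results of these data known. Of the lists, hoip, Tgs1 and Ns3 were not analysed here, nor were the planned promoter and protein sequence features. Alternatives covered the pseudocount, filter, scaling, trend, weights, libraries fitted, a replicate block, each library left out and, added after the data were seen, limma voom on recovered reads and weights estimated gene by gene. Tables came from Python 3.11.15 with pandas 2.3.3, numpy 2.4.6 and scipy 1.17.1, and plots from matplotlib 3.10.9.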

Additional observations from a re-analysis of the deposited data

Results flagged for a closer look

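Only the 9 members and the lists of 11, 8, 9 and 37 genes were searched here. For 4 of these genes the effects of the 2 hairpin genotypes differed by the direct test between them (limma, adjusted p under 0.05 over all genes tested). The same test called 21.9% of all genes tested. Tif-IA was lower in CR32027-IR1 than in CR32027-IR2 by a log2 difference of -0.23 and kept its call in all 19 alternatives. For nop5 the difference was -0.29, and the nop5 call was lost in 11 of 19 alternatives. TAF1B differed by -0.27 and lost its call in 7 of 19 alternatives. Non1 differed in the other direction, by 0.45, and kept its call in all 19.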

How the results depend on the processing

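The 3 member calls were those of Tif-IA in both of its comparisons and of nop5. With array weights gene by gene, 2 members were called in CR32027-IR1 against OreR. Between the hairpin genotypes 1 member, not 2, was called with no filter, no intensity trend, array weights, a replicate block or only the 2 genotypes, and 1 to 2 without single libraries. Under these 19 alternatives no called value changed sign. In CR32027-IR1 against OreR the snoRNP list had 3 calls with weights gene by gene (0 to 1 without single libraries), the RNA polymerase I list 2 (0 to 1) and the assembly factors 5 (1 to 2), or 0 with array weights. In CR32027-IR2 against OreR 1 assembly factor was called with only the 2 genotypes. Between the hairpin genotypes voom called 1 Myc partner, weights gene by gene 1 snoRNP gene (0 to 1 without single libraries), and the RNA polymerase I list had 0 calls with no filter or array weights and 2 with weights gene by gene (0 to 1). Assembly factors there had 4 with equal medians and 5 with weights gene by gene (1 to 3). The causes were not tested. The planned array weights stopped before converging and gave CR32027-IR1 replicate 1 a weight of 0.0116. Weights gene by gene gave that library 4.48, and the other libraries 0.31 to 1.48. The CR32027-IR1 values of the fit with weights gene by gene therefore rest mostly on 1 library.

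Over the whole table, 1019, 383 and 1625 genes (the hairpin genotypes against OreR, then against each other) became 371, 972 and 706 with array weights and 2313, 779 and 3294 with weights gene by gene. Without single libraries they ranged from 485 to 1320, 187 to 504 and 970 to 2159, lowest without OreR replicate 2 in the first and without CR32027-IR2 replicate 2 in the others. With only the 2 genotypes CR32027-IR1 had 612. Under the replicate block CR32027-IR1 and CR32027-IR2 had 565 and 222 against OreR. Libraries shared only a number: deviations of same-numbered libraries correlated at -0.237 to 0.116 across genes, and a library correlated best with its own number in 3 of 18 cases.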

Other observations

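The reads counted for snoRNA genes inside the members did not all follow those of their hosts. Of 7 within Nop60B, 1 was called in each comparison with OreR (limma, beside 13.7% and 5.15% of all genes tested). This was snoRNA:Me28S-G1083a, the guide RNA gene of a methylation site in 28S ribosomal RNA, at 13.9 ± 2.15 RPKM in OreR, 2.44 ± 2.02 in CR32027-IR1 (limma, adjusted p = 0.00329, called in all 19 alternatives) and 3.75 ± 0.511 in CR32027-IR2 (0.0255, called in 12 of 19, with adjusted p up to 0.0989 without CR32027-IR2 replicate 2). It rests on 100, 19 and 29 reads in these genotypes. On the same strand it shares 84 exonic bases with Nop60B. The libraries were mRNA libraries, so its reads may not measure the mature guide RNA. Its neighbours snoRNA:Me28S-G1083b, snoRNA:Me28S-G1083c and snoRNA:Me28S-G1083d are related copies that may share reads with it and with the Nop60B transcript, and none of them passed. The snoRNA gene within Fib was at 1.81 ± 0.24 RPKM in OreR and 0.627 ± 0.0847 in CR32027-IR2 (limma, adjusted p = 0.021, or 0.112 with voom), from 22 and 8 reads, and is uncertain at that depth.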
